A study of Arabidopsis thaliana with 4 samples.

Results

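Seedlings of 2 Arabidopsis thaliana mutants, hdp3-2 and asil1-2, were set directly against each other, gene by gene, as log2(hdp3-2/asil1-2). HDP3 is a host protein derived from a Harbinger transposase and ASIL1 is a trihelix DNA-binding factor, and the series asks how far the transcriptional effects of the pair overlap. A direct ratio gives the other side of that question, the genes at which the mutants part. A gene was included where the authors' test status was OK in both tables and its level was at least 1 FPKM (fragments normalised to transcript length and to library size) in either mutant. This kept 19081 of 33557 genes, or 56.9%, and 19068 of them could be tested. At the threshold, AT5G49690 was just inside with 0.594 FPKM in hdp3-2 and 1 FPKM in asil1-2, and AT1G74205 just outside with 0.99995 FPKM in hdp3-2 and 0.80 FPKM in asil1-2.

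Per the labels, both mutants were whole seedlings, 14 days old, held at 4 °C for 3 days and then grown at 22 °C with 16 h of light and 8 h of dark. The medium had 2% sucrose and 0.8% agar, and total RNA came from 100 mg of tissue, with 2 libraries per mutant. The hdp3-2 libraries are titled hpd3-2, while their genotype label reads hdp3-2. The wild type, Col-0, came from a series not analysed here, and the sources used here do not give its age, growth or number of libraries. The tables hold 1 FPKM value per gene and genotype, combined over libraries, so every level below is a single value and its sequencing depth is unknown. The error of each ratio is a standard error (SE) built from the authors' test statistics. Nothing in the labels says that libraries of a mutant came from separate plants. The test therefore measures the spread of these libraries and of the wild-type libraries alone, and that spread may be technical. In bulk seedlings, fewer cells of a type and less RNA per cell cannot be told apart.

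When cells are heated, or when proteins misfold for other reasons, heat shock factors bind promoter arrays of the short unit GAA in alternating orientation and switch on chaperone genes. Small heat shock proteins hold unfolding proteins, HSP101 pulls aggregates apart, HSP70 and HSP90 refold clients, and co-chaperones such as Hop and Fes1 connect or reset these machines. HSFA2 is itself made in response to heat and prolongs the response in Arabidopsis. Genes of this system were 16 of the 27 called at the full variance described next, 23 of the 125 that passed with the variance multiplied by 0.5, and 4 of the 40 that passed with the SE taken from the authors' p. How many of all tested genes carry such annotations was not counted. On the lists of small heat shock proteins, large chaperones and heat shock factors, 11 of 40 tested genes were called higher, against 22 of 19068 overall tested. These lists were chosen with earlier results of these data known.

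In the z test of the ratio, 22 genes were higher in hdp3-2 than in asil1-2, 0.115% of those tested, and 5 were lower, 0.0262% (Benjamini-Hochberg adjusted p under 0.05 over 19068 genes). Of the 22, 16 are heat shock, chaperone or co-chaperone genes. They were grouped by the words of their annotation or, for FKBP65, BAG6, Hop3 and Fes1A, by family or name, after the calls were seen. Those 16 genes were 3.18- to 11.9-fold higher in hdp3-2, and their levels summed to 1186 FPKM in hdp3-2, against 221 in asil1-2 and 181 in wild type. The test counts the variance of the shared wild type in both standard errors, which makes it miss differences, and 1.799% of genes had an unadjusted p under 0.05. With the summed variance multiplied by 0.5, 56 genes were higher (0.294%) and 69 lower (0.362%), and these held all 27 genes called before. The wild-type share of the variance is unknown, so this factor can be too small and pass genes that do not differ. Of the 27, CYP82C4, FER2 and AT3G19120 had under 1 FPKM in 1 mutant and so were included through the mutant in which they were high, which makes their difference not independent of the inclusion rule. The same holds for 11 of the 125, FRO2, WRKY46, TAT3 and ERF13 among them. Counts of ratios above or below 0 in the lists below can hold such genes too, and their sign followed from that rule. With no FPKM minimum those 3 of the 27 were still called.

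**Figure D1:**
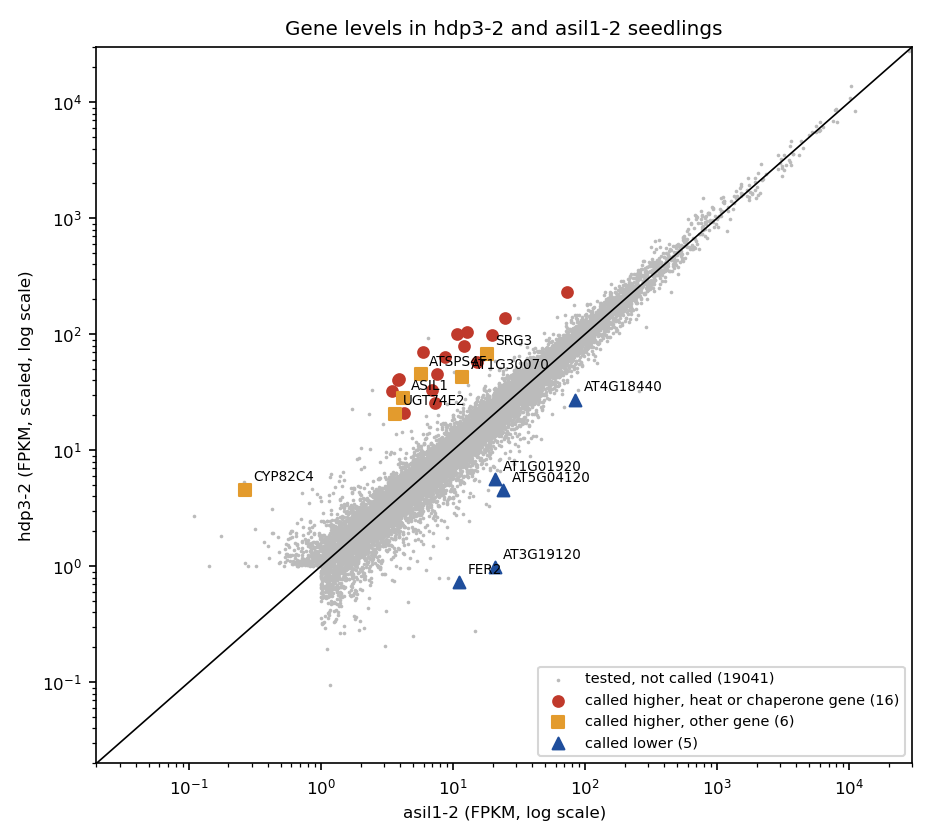
Level of each of the 19068 tested genes in hdp3-2 (vertical axis, scaled FPKM) against asil1-2 (horizontal axis, FPKM), both on log scales, with the line of equal levels. The 16 heat shock or chaperone genes (circles) and 6 other genes (squares) called higher in hdp3-2 lie above the line, and the 5 genes called lower (triangles) below it, while 84.6% of genes lie within 0.5 of the line in log2.

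Most genes differed little. The median log2 ratio over all tested genes was 0.03 and 84.6% lay within 0.5 of 0 on the log2 scale. The median SE was 0.44, at which a log2 ratio of 1.73 was needed for a call. The smallest z in size of a called gene, its ratio over its SE, was 3.97, and 2.56 of a gene that passed with the variance multiplied by 0.5. Every z given here is at the full variance. At least a 2-fold ratio, without a test, was seen for 219 genes on the higher side in hdp3-2 (1.15%) and 416 on the lower side (2.18%). Of the 219 and 416 genes, 71 and 161 had a mean level under 2 FPKM over the genotypes, where the median SE was 0.86. Among genes with a mean of at least 50 FPKM, 9 had such a ratio on the higher side and 6 on the lower side. Wild type lay between the mutants for 135 of the 219 genes and for 289 of the 416.

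The sequences that heat shock factors bind are shown for the called genes that hold the full array close to the gene start. The array was searched as GAANNTTCNNGAA or TTCNNGAANNTTC, on both strands, in the 250 bases before the gene start given in the authors' tables, for genes whose locus in the tables holds 1 gene. It was found before 4 of the 13 heat shock or chaperone genes called higher that have such a window (30.8%), before 0 of 5 other genes called higher and before 0 of 5 genes called lower. Of 23003 nuclear protein-coding genes with a window, 0.448% hold it, and of the 15537 tested genes with one, 0.502%. The shorter pair GAANNTTC, which the array contains, was before 7 of the 13 genes (53.8%), against 9.71% of all 23003 and 9.56% of the 15537 tested genes. It was before 1 of 5 other genes called higher (20%) and before 0 of 5 genes called lower. These windows were chosen after gene starts from RefSeq had been tried. Before those starts the array was found at 1 of 16 genes (6.25%), against 0.386% of all genes. A match describes the letters of the window and is not a bound site. The sites, 5′ to 3′ with the array in capitals, were read from the RefSeq TAIR10.1 sequence and are shown because these 4 called genes hold the array.
HSP90.1, chr5:21352254-21352283, plus strand: aacgaaaaGAACTTTCTGGAAttcgtttgc
HSP70, chr3:3993845-3993874, minus strand: ttactcgtGAACGTTCTCGAAagctctttg
HSFA2, chr2:11135528-11135557, plus strand: ttagtaacGAAGTTTCTGGAAcattgtctt
AT3G09440 far site, chr3:2905893-2905922, minus strand: atcgaaccGAACATTCTCGAAcctttttaa
AT3G09440 near site, chr3:2905764-2905793, minus strand: gagccatcGAACCTTCTCGAAactcgagta
The array began 137 bases before the start of HSP90.1, 74 before HSP70, 146 before HSFA2, and 185 and 56 before AT3G09440, an HSP70 family gene with a pair of arrays.

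Large chaperones were higher in hdp3-2. HSP90.1 (AT5G52640, chromosome 5, 21352399 to 21355361 in TAIR10), the heat-induced cytosolic HSP90, had 101 FPKM in hdp3-2, 10.8 in asil1-2 and 5.71 in wild type. The hdp3-2 value stood far above both others. The log2 ratio of HSP90.1 between the mutants was 3.23 ± 0.41 (SE, z = 7.83). With the SE taken from the authors' p, this call and those of HSP70 and HSP101 below were lost. HSP70 (AT3G12580), carrying the site shown above, had 138 FPKM in hdp3-2, 25.0 in asil1-2 and 19.4 in wild type, a log2 ratio of 2.47 ± 0.38 (z = 6.49). HSP101 (AT1G74310), the disaggregating chaperone, had 63.7 FPKM in hdp3-2, 8.69 in asil1-2 and 4.14 in wild type, a log2 ratio of 2.87 ± 0.45. Its locus in the tables overlaps another gene, so its value is less certain. The same holds below for HSP17.4, MBF1C, FER1, WRKY40, CSD1 and AT2G30766, among others.

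Their partners followed. FKBP65 (AT5G48570), a peptidyl-prolyl isomerase, had 79.3 FPKM in hdp3-2, 12.1 in asil1-2 and 6.31 in wild type, and its log2 ratio was 2.72 ± 0.41. Hop3 (AT4G12400), which links HSP70 to HSP90, had 45.8 FPKM in hdp3-2, 7.58 in asil1-2 and 4.62 in wild type, with a log2 ratio of 2.60 ± 0.43. BAG6 (AT2G46240), a member of the BAG family of HSP70 partners, had 21.1 FPKM in hdp3-2, 4.24 in asil1-2 and 3.15 in wild type, a log2 ratio of 2.31 ± 0.43. In each case asil1-2 lay much nearer to wild type than to hdp3-2. The calls of FKBP65, Hop3 and BAG6 were lost with the SE taken from the authors' p. Of the 17 tested genes on the list of large chaperones and co-chaperones, 6 were higher in hdp3-2 and 0 lower, 15 had a ratio above 0, and the median log2 ratio was 0.92, against 0.03 over all genes.

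The other members of this list had smaller ratios. HSC70-1, the main constitutive HSP70, had 1070 FPKM in hdp3-2, 683 in asil1-2 and 693 in wild type, with a log2 ratio of 0.64 ± 0.44. HSP81-2, a constitutive HSP90, had 179 FPKM in hdp3-2, 82.8 in asil1-2 and 82.8 in wild type, and CLPB4, the mitochondrial relative of HSP101, had 13.7 FPKM in hdp3-2, 5.98 in asil1-2 and 5.72 in wild type. Both passed only with the summed variance multiplied by 0.5, each with a z of 2.97 at the full variance. Hsp70b and Hsp70-2, with log2 ratios of -0.50 ± 0.50 and -0.25 ± 0.44, were the 2 members below 0.

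Small heat shock proteins had the highest median ratio of the lists, with wide errors. AT1G07400, of the HSP20-like family, had 70.6 FPKM in hdp3-2, 5.95 in asil1-2 and 1.29 in wild type, and its log2 ratio of 3.57 ± 0.82 passed (z = 4.33). AT2G29500 had 104 FPKM in hdp3-2, 12.8 in asil1-2 and 7.64 in wild type, a log2 ratio of 3.02 ± 0.52. The calls of AT1G07400 and AT2G29500 were lost with the SE taken from the authors' p. AT5G51440 differed from these in that asil1-2 and wild type had nearly the same level. It had 40.3 FPKM in hdp3-2, 3.88 in asil1-2 and 3.86 in wild type, a log2 ratio of 3.38 ± 0.60. AT1G59860, with 32.6 FPKM in hdp3-2, 3.44 in asil1-2 and 1.90 in wild type, passed narrowly (z = 3.97) and lost its call under 7 of the alternatives tried.

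All 12 tested members of the small heat shock protein list had a ratio above 0, 10 had at least a 2-fold ratio, 4 were called higher, and the median log2 ratio was 3.19. HSP17.6A had 92.3 FPKM in hdp3-2, 6.43 in asil1-2 and 0.603 in wild type. Its log2 ratio of 3.84 ± 1.37 passed only with the variance multiplied by 0.5 (z = 2.80), as did that of AT5G37670, at 2.51 ± 0.88 (z = 2.85). HSP17.4, AT1G53540 and HSP17.6II had log2 ratios of 3.76 ± 3.36, 3.73 ± 2.11 and 3.13 ± 1.64, and passed neither test. The members with the smallest ratios, AT1G52560, AT4G21870 and HSP18.2, were at 1.12 ± 1.01, 0.39 ± 0.40 and 0.36 ± 0.73. The remaining 3 list members, HSP23.6-MITO, ATHSP22.0 and HSP21, were not members of the contrast, and the highest of them, HSP23.6-MITO, had 3.64 FPKM in hdp3-2, 0.218 in asil1-2 and 0.0394 in wild type.

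**Figure D2:**
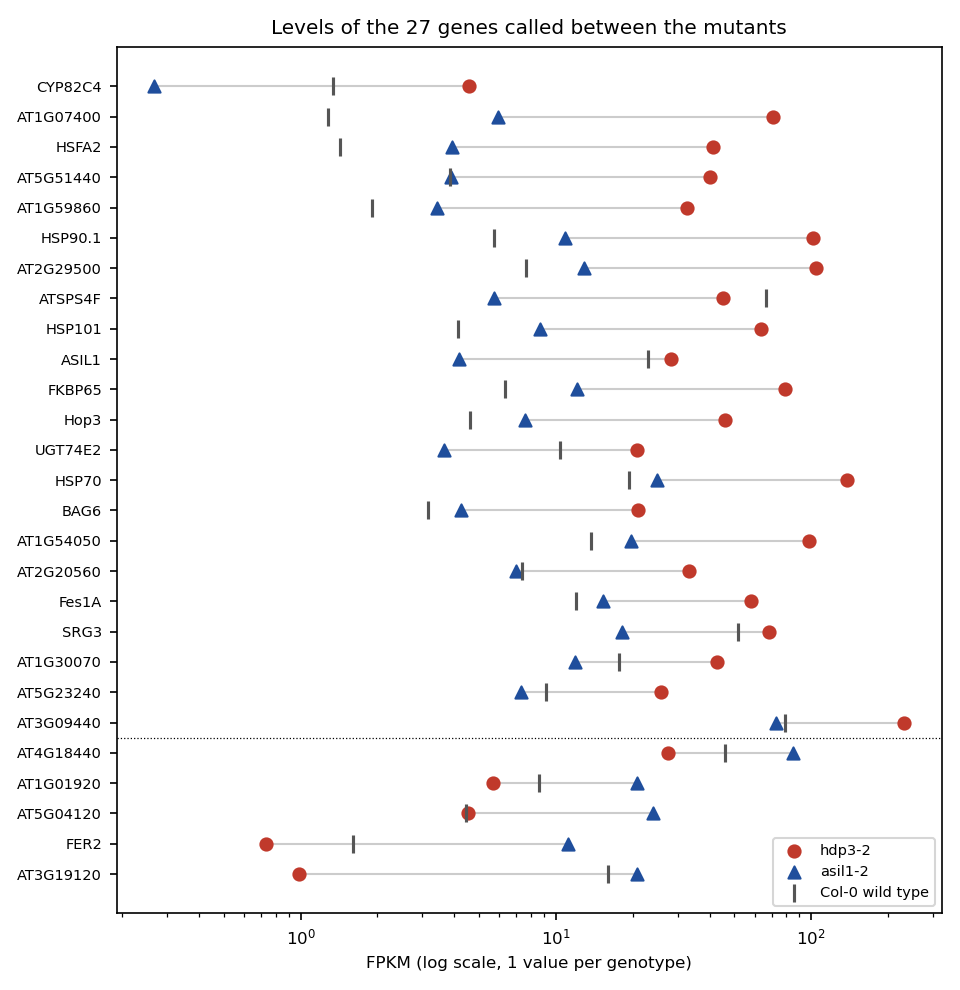
FPKM (log axis) of the 27 called genes in hdp3-2 (circles), asil1-2 (triangles) and Col-0 wild type (ticks), 1 value per genotype and no error bars, in order of the ratio hdp3-2 over asil1-2. Above the dotted line hdp3-2 is the higher mutant, and for the 16 heat shock and chaperone genes asil1-2 sits closer to wild type than hdp3-2 does. CYP82C4, ATSPS4F, ASIL1, UGT74E2, SRG3 and AT1G30070 have asil1-2 below wild type, as do the heat or chaperone genes AT2G20560, AT5G23240 and AT3G09440.

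Among the regulators, HSFA2 was called. HSFA2 (AT2G26150) had 41.3 FPKM in hdp3-2, 3.92 in asil1-2 and 1.43 in wild type. Its log2 ratio was 3.40 ± 0.61 (z = 5.57), a call lost with the SE taken from the authors' p. It was the 1 call among 11 tested heat shock factors and heat regulators, whose median log2 ratio was 0.48. HSF1 and HSFA1D, which start the heat response from existing protein, had log2 ratios of 0.51 ± 0.50 and 0.48 ± 0.49, and HSFA7A had 0.23 ± 0.43. MBF1C, a heat-induced coactivator, had 138 FPKM in hdp3-2, 31.0 in asil1-2 and 44.2 in wild type, but its log2 ratio of 2.15 ± 1.06 passed with neither variance (z = 2.02). Of 11 tested genes of the unfolded protein response, the chaperone programme of the endoplasmic reticulum, 0 passed either z test, 0 had an unadjusted p under 0.05, and the median log2 ratio was 0.03.

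A further 5 heat or chaperone genes were called outside the lists and are named here after their values were seen. AT3G09440, the HSP70 family gene with a pair of arrays, had the highest level of all called genes, 232 FPKM in hdp3-2, against 72.9 in asil1-2 and 79.0 in wild type. AT1G54050, of the HSP20-like family, had 98.0 FPKM in hdp3-2, 19.7 in asil1-2 and 13.7 in wild type. Its TAIR10 span, chromosome 1 from 20179422 to 20180281, is next to that of ASIL1, which spans 20180679 to 20182324. The others were the DNAJ genes AT2G20560 and AT5G23240 with log2 ratios of 2.25 and 1.82, both on loci that overlap another gene, and Fes1A, named for a factor that resets HSP70, with 1.93.

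Across the 16 heat shock and chaperone genes, hdp3-2 was above wild type in all 16, with log2 ratios from 1.49 to 5.78, and asil1-2 was above wild type in 13, with log2 ratios from -0.33 to 2.21. By the q of the authors' deposited tables all 16 passed 0.05 against wild type in hdp3-2. In asil1-2, 6 of them passed it too, all above wild type, namely AT1G07400, HSFA2, HSP90.1, HSP101, FKBP65 and Hop3. These calls depend on how the standard error is read. When it was taken from the authors' p instead of their statistic, 4 of the 16 passed, although 13 genes in all were then called higher in hdp3-2. The 4 were AT5G51440, AT2G20560, AT5G23240 and AT3G09440. The calls of the other heat or chaperone genes, HSP90.1, HSP70, HSP101 and HSFA2 among them, were lost. The authors' p in their deposited tables has a lowest value of 5e-05, equal to a z of 4.06. All 16 had that p in the hdp3-2 table, and all 27 called genes had it for at least 1 mutant. Its part in the lost calls was not tested. Values that moved or did not move beside the heat genes were as follows. The morning and evening clock lists had median log2 ratios of 0.26 and 0.33, and the touch list had 0.12, with 0 calls in each under either variance (z test), and 0, 1 and 0 of their genes had an unadjusted p under 0.05. The organelle genes described below had ratios above 0 in 53 of 54 plastid and 14 of 15 mitochondrial genes, counts that hold genes included through hdp3-2 alone. Without the organelle genes the same 22 and 5 genes were called. Their part in the result was not tested.

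ASIL1 itself and a transposase-derived gene separated the mutants in opposite directions. ASIL1 (AT1G54060) had 28.3 FPKM in hdp3-2, 4.16 in asil1-2 and 22.9 in wild type, so it was low in the mutant named for it. The log2 ratio of ASIL1 between the mutants was 2.76 ± 0.42 (z = 6.65). AT3G19120 (chromosome 3, 6609412 to 6611059 in TAIR10), annotated in the PIF and Ping-Pong family of plant transposases to which Harbinger elements belong, had 0.986 FPKM in hdp3-2, 20.7 in asil1-2 and 16.1 in wild type. It had the most negative called ratio, -4.40 ± 0.57 (z = -7.71), a 21.04-fold lower level in hdp3-2. AT3G19120 was included through asil1-2 alone, so its difference is not independent of the inclusion rule. The files and the reference used here give no locus for the name HDP3, so whether this gene is the mutated one is not given.

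Relatives of the pair had no other call at the full variance. Of 9 tested Harbinger-derived genes and partners, AT3G19120 was the 1 call. AT4G29780 had a log2 ratio of -1.54 ± 0.43 that passed with the variance multiplied by 0.5 and with the SE from the authors' p (z = -3.54). AT3G63270 and AT3G55350 had 0.19 ± 0.47 and 0.09 ± 0.47. Of 25 tested trihelix genes, ASIL1 was called. AT2G44730, another member, had 48.0 FPKM in hdp3-2, 23.9 in asil1-2 and 27.2 in wild type, and passed only with the variance multiplied by 0.5 (z = 2.56). ASIL2, a paralog, had 38.9 FPKM in hdp3-2, 25.9 in asil1-2 and 21.4 in wild type, a log2 ratio of 0.58 ± 0.39 that did not pass.

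Of the other genes called higher in hdp3-2, ATSPS4F and CYP82C4 were the most separated. ATSPS4F (AT4G10120), a sucrose-phosphate synthase of the last steps of sucrose synthesis, had 45.3 FPKM in hdp3-2, 5.75 in asil1-2 and 66.5 in wild type. Here asil1-2 was the mutant far from wild type, and the log2 ratio was 2.98 ± 0.38 (z = 7.83), a call that was lost with the SE taken from the authors' p. It was the 1 call among 27 tested sucrose and starch genes, of which 22 had a ratio above 0 and whose median log2 ratio was 0.28. Its paralog SPS1F had 53.0 FPKM in hdp3-2, 43.8 in asil1-2 and 42.3 in wild type, and SEX1, which phosphorylates starch before its breakdown, had 148 FPKM in hdp3-2, 83.7 in asil1-2 and 104 in wild type, and neither passed.

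CYP82C4 (AT4G31940), a cytochrome P450 that makes an iron-mobilising coumarin in roots, had 4.58 FPKM in hdp3-2, 0.267 in asil1-2 and 1.34 in wild type. The mutants lay on opposite sides of wild type, and the log2 ratio of 4.101 ± 0.907 was the largest of any called gene (z = 4.52). With 1 FPKM added to both levels before the ratio, the value was 2.14 and the call was lost. CYP82C4 and the next gene, FRO2, were included through hdp3-2 alone, so their differences are not independent of the inclusion rule. FRO2, the root ferric reductase, had 4.68 FPKM in hdp3-2, 0.852 in asil1-2 and 2.78 in wild type, a log2 ratio of 2.46 ± 0.63 just outside the threshold (z = 3.90). IRT1, the iron transporter that works beside FRO2, had 13.9 FPKM in hdp3-2, 3.71 in asil1-2 and 7.57 in wild type, and its log2 ratio of 1.91 ± 0.66 passed with the variance multiplied by 0.5 (z = 2.88), as did that of FRO2, and both passed with the SE from the authors' p.

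CYP82C4 was the 1 call on the iron deficiency list. Of 25 tested members 1 was called higher and 0 lower, 18 had a ratio above 0, and the median log2 ratio was 0.27. On this list, 25 genes reached 1 FPKM in hdp3-2 and 21 in asil1-2. CYP82C4, FRO2, BHLH100 and bHLH38 were included through hdp3-2 alone, so their ratio above 0 followed from the inclusion rule. The regulators BHLH100 and bHLH38 had log2 ratios of 1.84 ± 0.96 and 1.75 ± 0.94, with hdp3-2 nearer to wild type than asil1-2, and neither passed. BTS, which restrains the response, had 0.27 ± 0.38. AT2G30766 and AT1G47395, on the list as IMA3 and IMA2 and annotated as uncharacterized proteins, had -0.16 ± 0.74 and -0.44 ± 0.98. AT2G30766 was far below wild type in both mutants, with 6.75 FPKM in hdp3-2, 7.51 in asil1-2 and 56.9 in wild type. So was AT1G47395, with 3.32 FPKM in hdp3-2, 4.49 in asil1-2 and 21.5 in wild type.

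Ferritins, which store iron in a protein shell, went the other way in 1 member. FER2 (AT3G11050) had 0.73 FPKM in hdp3-2, 11.1 in asil1-2 and 1.60 in wild type, so the mutants again lay on opposite sides of wild type. Its log2 ratio was -3.93 ± 0.90 (z = -4.37), and with 1 FPKM added to both levels it was -2.81 and not called. FER2 was included through asil1-2 alone, so its difference is not independent of the inclusion rule. The other ferritins had higher levels and ratios above 0. FER1 had 187 FPKM in hdp3-2, 131 in asil1-2 and 82.8 in wild type, a log2 ratio of 0.51 ± 0.37, and FER4 had 0.35 ± 0.40. Of the 8 tested iron storage genes 1 was called lower, 7 had a ratio above 0, and the median log2 ratio was 0.40.

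**Figure D3:**
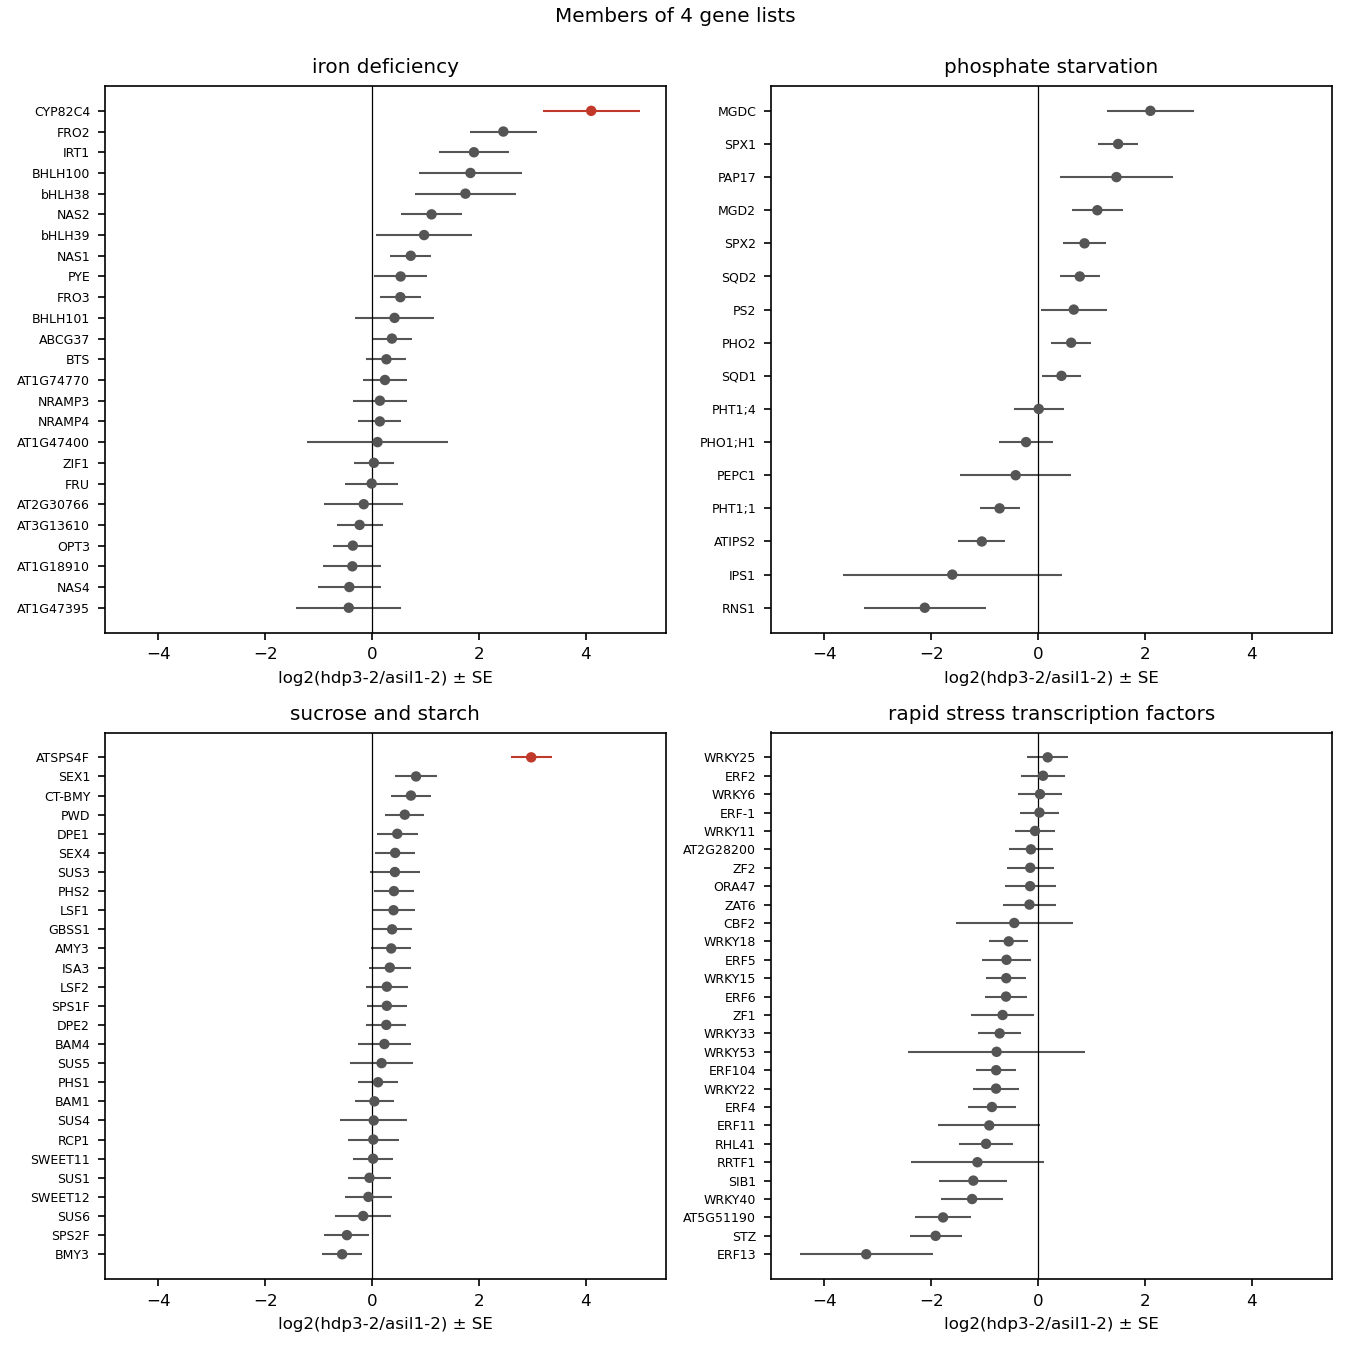
Log2(hdp3-2/asil1-2) with its standard error (bars) for each tested member of the lists for iron deficiency, phosphate starvation, sucrose and starch, and rapid stress transcription factors, ordered by value within each panel, with called genes in red and a line at 0. CYP82C4 and ATSPS4F stand apart at the top of their panels, and 24 of the 28 rapid stress factors lie left of 0 without a call.

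UGT74E2, SRG3 and AT1G30070 complete the called higher genes and were named after their values were seen. UGT74E2 (AT1G05680), which attaches glucose to the auxin indole-3-butyric acid, had 20.7 FPKM in hdp3-2, 3.64 in asil1-2 and 10.4 in wild type, a log2 ratio of 2.51 ± 0.46 (z = 5.46). SRG3, annotated as senescence-related, had 68.3 FPKM in hdp3-2, 18.22 in asil1-2 and 51.6 in wild type, on a locus that overlaps another gene. AT1G30070, annotated by an SGS domain, had 42.7 FPKM in hdp3-2, 11.8 in asil1-2 and 17.7 in wild type. Of the 23 tested auxin response genes 0 passed either z test, 0 had an unadjusted p under 0.05, and their median log2 ratio was 0.08.

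The remaining 3 genes called lower in hdp3-2 had asil1-2 as the mutant above wild type. AT5G04120, of the phosphoglycerate mutase family, had 4.51 FPKM in hdp3-2, 24.0 in asil1-2 and 4.45 in wild type, a log2 ratio of -2.41 ± 0.60 (z = -4.05). Its level in hdp3-2 was close to that of wild type. The call was lost with the SE from the authors' p, with 1 FPKM added to both levels and at an adjusted p under 0.01. AT1G01920, which encodes a SET domain protein, had 5.65 FPKM in hdp3-2, 20.8 in asil1-2 and 8.57 in wild type, a log2 ratio of -1.88 ± 0.44. AT4G18440, of the L-aspartase-like family, had 27.4 FPKM in hdp3-2, 84.5 in asil1-2 and 45.9 in wild type, a log2 ratio of -1.63 ± 0.37, the smallest in size of any called gene. For these last 2 genes hdp3-2 lay below wild type and asil1-2 above it.

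Set against wild type, 17 of the 22 genes called higher were farther from it in hdp3-2 and 5 in asil1-2, and wild type lay between the mutants for 8. Of the 5 called lower, 1 was farther from wild type in hdp3-2, and wild type lay between the mutants for 4. By the q of the authors' deposited tables, 9 of the 27 genes passed 0.05 against wild type in both mutants, 12 in hdp3-2 alone, 6 in asil1-2 alone and 0 in neither. Both of those comparisons share the wild-type values.

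Phosphate starvation genes spread in both directions. SPX1, a phosphate sensor that restrains the starvation response, had 58.4 FPKM in hdp3-2, 20.7 in asil1-2 and 90.0 in wild type. Its log2 ratio of 1.498 ± 0.381 lay just outside the threshold (z = 3.93) and passed among genes of at least 10 FPKM. MGDC, a synthase of galactolipids that replace phospholipids, had 6.03 FPKM in hdp3-2, 1.40 in asil1-2 and 0.752 in wild type, and passed only with the variance multiplied by 0.5 (z = 2.60). RNS1, a ribonuclease of phosphate-starved plants, had -2.12 ± 1.14 and the phosphate transporter PHT1;1 had -0.72 ± 0.37. RNS1, at 0.530 FPKM in hdp3-2, was included through asil1-2 alone, so its ratio below 0 followed from the inclusion rule. Of 16 tested members 0 were called in the z test and 6 had an unadjusted p under 0.05, 10 had a ratio above 0, and the median log2 ratio was 0.53.

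Rapid stress transcription factors, which respond within minutes to wounding, touch, reactive oxygen and pathogens, were the list with the most negative median. It was -0.63, and 24 of 28 tested members had a ratio below 0, where 45.4% of all genes did. On this list, 28 genes reached 1 FPKM in asil1-2 and 26 in hdp3-2. ERF13, for one, was included through asil1-2 alone, so its ratio below 0 followed from the inclusion rule. In the z test 0 were called and 5 had an unadjusted p under 0.05, and the median cannot say that a single gene differed. STZ, a zinc finger repressor, had 12.4 FPKM in hdp3-2, 46.9 in asil1-2 and 10.9 in wild type, a log2 ratio of -1.92 ± 0.48 close to the threshold (z = -3.95). With the variance multiplied by 0.5, STZ, the ethylene response factor gene AT5G51190 and ERF13 were lower in hdp3-2, and their z values at the full variance were -3.95, -3.37 and -2.58. AT5G51190 had 6.59 FPKM in hdp3-2, 22.6 in asil1-2 and 8.29 in wild type.

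The mutants stood on opposite sides of wild type in the median of this list, which was -0.25 in hdp3-2 and 0.47 in asil1-2 as log2 ratios over wild type. Over all tested genes these medians were -0.06 and -0.08. Single members could differ from the list median. WRKY40 had 7.64 FPKM in hdp3-2, 18.0 in asil1-2 and 7.82 in wild type, a log2 ratio between the mutants of -1.23 ± 0.57. ERF104 had 75.2 FPKM in hdp3-2, 129 in asil1-2 and 48.8 in wild type, a log2 ratio of -0.78 ± 0.37. ERF104 and STZ were above wild type in both mutants. The touch and calmodulin-like list had 5 of 9 tested members above 0.

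**Figure D4:**
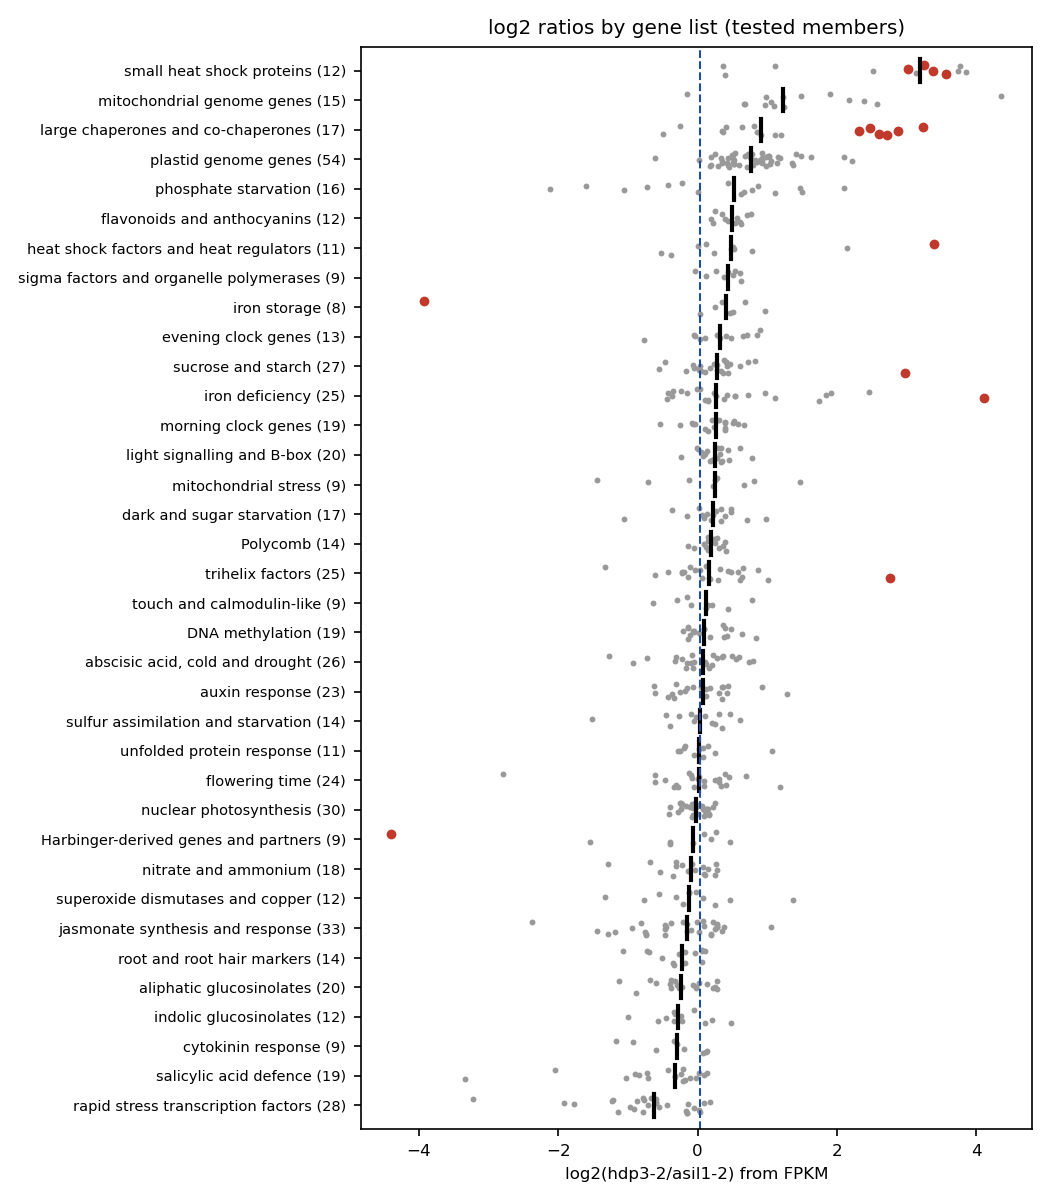
Log2(hdp3-2/asil1-2) of every tested member (points, called genes in red) of each gene list with at least 8 tested members, with the list median (black bar), the number tested in brackets and the median of all genes (dashed line, 0.03). Small heat shock proteins are at the top with a median of 3.19 and rapid stress transcription factors at the bottom with -0.63, and most lists sit close to the dashed line.

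The salicylic acid, jasmonate and glucosinolate lists had smaller medians below 0. In the salicylic acid list 16 of 19 tested members had a ratio below 0, with a median log2 ratio of -0.32, 0 calls and 2 genes with an unadjusted p under 0.05 (z test). On this list, 19 genes reached 1 FPKM in asil1-2 and 14 in hdp3-2. Some members, PR1 and WRKY46 among them, were included through asil1-2 alone, so their ratio below 0 followed from the inclusion rule. PR1, the classic marker of the salicylic acid list, had 0.787 FPKM in hdp3-2, 7.92 in asil1-2 and 0.243 in wild type, but with an SE of 1.62 its log2 ratio of -3.33 did not pass. WRKY46 had 0.966 FPKM in hdp3-2, 3.97 in asil1-2 and 2.69 in wild type, and passed with the variance multiplied by 0.5 (z = -2.90). The jasmonate list had a median of -0.15 over 33 genes, with 14 above and 19 below 0, 0 calls and 7 genes with an unadjusted p under 0.05 (z test), and TAT3, a tyrosine aminotransferase, passed only with that variance (z = -2.65). Aliphatic and indolic glucosinolate genes had medians of -0.24 and -0.28, with 14 of 20 and 9 of 12 below 0 and 0 calls under either variance, while 2 and 1 had an unadjusted p under 0.05 (z test). CYP79F1, the entry enzyme of the aliphatic branch, had 10.9 FPKM in hdp3-2, 20.0 in asil1-2 and 40.2 in wild type. CYP83A1 of the same branch had 40.0 FPKM in hdp3-2, 46.5 in asil1-2 and 73.7 in wild type, and MYB28, its regulator, had 13.8 FPKM in hdp3-2, 11.4 in asil1-2 and 25.3 in wild type. For these 3 genes both mutants were below wild type and the ratio between them was within 1 in log2.

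Flavonoid, light and plastid regulator genes had medians above 0. All 12 tested flavonoid genes had a ratio above 0, against 54.6% of all genes, with a median of 0.49, 0 calls and 0 with an unadjusted p under 0.05 (z test). TT4, chalcone synthase at the entry of the pathway, had 169 FPKM in hdp3-2, 116 in asil1-2 and 124 in wild type, a log2 ratio of 0.54 ± 0.37. In the light signalling list 18 of 20 genes were above 0 with a median of 0.26, and of the sigma factors and polymerases that transcribe organelle genomes 8 of 9 were, with a median of 0.43. Both lists had 0 calls under either variance and 0 genes with an unadjusted p under 0.05 (z test).

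Copper and nitrate genes gave 2 results that passed only with the smaller variance. CSD2, the plastid copper/zinc superoxide dismutase, had 115 FPKM in hdp3-2, 288 in asil1-2 and 483 in wild type, a log2 ratio of -1.33 ± 0.37 (z = -3.56). CSD1, the cytosolic form, had 127 FPKM in hdp3-2, 215 in asil1-2 and 248 in wild type, and passed neither test. NRT2:1, a high-affinity nitrate transporter, had 6.99 FPKM in hdp3-2, 17.0 in asil1-2 and 5.97 in wild type, a log2 ratio of -1.28 ± 0.44 (z = -2.91).

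Genes encoded in the organelles were counted apart. Of 54 tested plastid genes 53 had a ratio above 0, the median log2 ratio was 0.76, and 0 were called in the z test, where 8 had an unadjusted p under 0.05. Of 15 mitochondrial genes 14 had a ratio above 0, with a median of 1.22, 0 calls and 2 with an unadjusted p under 0.05. Of all mitochondrial genes, 17 reached 1 FPKM in hdp3-2 and 9 in asil1-2. Some of the 15, such as ATMG01220 with 0.26 FPKM in asil1-2, were included through hdp3-2 alone. Their ratio above 0 followed from the inclusion rule. With the variance multiplied by 0.5, 4 plastid and 2 mitochondrial genes were higher in hdp3-2. PSBC (ATCG00280), a photosystem II protein gene, had 82.7 FPKM in hdp3-2, 32.4 in asil1-2 and 31.9 in wild type, and RRN26 (ATMG00020), the large mitochondrial ribosomal RNA, had 142 FPKM in hdp3-2, 61.1 in asil1-2 and 52.2 in wild type. In both genes asil1-2 was close to wild type, and PSBC lies on a locus that overlaps another gene. The labels do not say whether RNA was selected by its poly(A) tail, and the share of organelle RNA taken into a library was not tested.

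Chromatin, flowering and photosynthesis genes had no call. DNA methylation genes (19 tested), Polycomb genes (14) and nuclear photosynthesis genes (30) had medians of 0.09, 0.20 and -0.03 and 0 calls under either variance (z test), and 0 of these genes had an unadjusted p under 0.05. In the flowering list FLC, the repressor silenced by cold, had 0.282 FPKM in hdp3-2, 1.96 in asil1-2 and 1.04 in wild type, with a log2 ratio of -2.79 ± 1.38 that passed neither test. FLC was included through asil1-2 alone, so its ratio below 0 followed from the inclusion rule. At the median SE of 0.44, differences smaller than those called above were not detectable.

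As a check of the tissue, all 30 nuclear photosynthesis genes and all 14 tested root markers reached 1 FPKM in both mutants. Of 9 floral organ markers 2 did so in hdp3-2 and 1 in asil1-2, and of 21 genes on the seed maturation list 3 did so in hdp3-2 and 2 in asil1-2. HSI2 and HSL1, repressors of seed genes, did so in both mutants, and CRA1, a seed storage protein gene, had 2.14 FPKM in hdp3-2, 0.81 in asil1-2 and 1.47 in wild type. FPKM summed over all genes came to 4.55e+06 in hdp3-2, 1.40e+06 in asil1-2 and 1.48e+06 in wild type, and 3 short genes outside the contrast held most of the excess in hdp3-2. Of the 13 genes of the contrast that had no test, 9 were at 0 in wild type and 4 at 0 in a mutant. Among them the plastid gene ATCG00640 had 24.1 FPKM in hdp3-2, 6.04 FPKM in asil1-2 and 0 in wild type. The snoRNA gene AT4G39366 was listed at 203809 FPKM in hdp3-2, 0 in asil1-2 and 373059 FPKM in wild type. AT1G07175, annotated as an alternative NAD(P)H dehydrogenase, was listed at 0 in hdp3-2, 1.22 in asil1-2 and 2.64 in wild type.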

How the data were processed

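Per the submitters' processing notes the tools were TopHat2, Cufflinks, Cuffdiff and deepTools and the build TAIR10, with no versions given. The authors deposited 2 tables, 1 per mutant against Col-0. The FPKM values were made by the authors, 1 per genotype and scaled within each table. The score is the authors' deposited test statistic, and the p-value and q-value columns are theirs, per the file headers. The deposited fold column was damaged by spreadsheet software in part and was not used. Depth is unknown, since no counts or values per library are held in these tables.

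The hdp3-2 FPKM values were multiplied by 1.019, the median ratio of the wild-type columns (asil1-2 table over hdp3-2 table), and 99.97% of 23185 genes lay within 0.1% of it. The SE of each mutant's log2 fold change against wild type is that change over the authors' statistic. The ratio between the mutants was tested with a two-sided z test, with the SE as the root of the summed squares, and Benjamini-Hochberg adjustment over 19068 genes. A gene was called at an adjusted p under 0.05. The script was tested on simulated data.

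The members and the 36 lists (671 entries) were chosen with earlier results of these data known. Genes named by rule were the 12 largest called ratios on each side, called list members, the 3 members of each list with the largest z, the 3 untested genes with the highest FPKM on each side, ASIL1 and AT3G19120. The 8 called genes outside this rule, further list members and organelle genes were chosen after their values were seen. Alternatives were another variance, SE from the authors' p, FPKM minimums of 10 or none, pseudocounts of 0.1 and 1, no scaling, centring, an adjusted p under 0.01, a 2-fold minimum and leaving out organelle genes. Positions are TAIR10, counted from 1, as in the tables, and 95.6% of 23004 RefSeq coding spans lay inside the tables' locus. Tests ran in Python 3.11.15 with SciPy 1.17.1, tables in pandas 2.3.3 and NumPy 2.4.6, and plots in matplotlib 3.10.9.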

Additional observations from a re-analysis of the deposited data

Results flagged for a closer look

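A signal appeared in 3 genes outside the contrast, because it stood above a wild-type level listed at 0. The plastid gene RPS12 (ATCG00065) was listed at 1.26645e+06 FPKM in hdp3-2, 0 in asil1-2 and 0 in wild type. The plastid gene RPL36 (ATCG00760) was listed at 823447 FPKM in hdp3-2, 0 in asil1-2 and 0 in wild type. The snoRNA gene AT4G39363 was listed at 320299 FPKM in hdp3-2, 0 in asil1-2 and 0 in wild type. All 3 are short, were not tested by the authors in both tables, and enter no comparison.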

How the results depend on the processing

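No paired analysis was possible because each genotype has 1 FPKM value and no values per library, and for the same reason leaving out a replicate could not be run. With the summed variance multiplied by 0.5, 56 genes were higher and 69 lower in hdp3-2, against 22 and 5, and all 27 were among them. With the SE from the authors' p, 13 were higher and 27 lower, of which 9 and 4 were among the 27, 4 of the 16 heat shock or chaperone genes passed, and 1, 0 and 0 members of the small heat shock, large chaperone and heat factor lists were called higher. With a pseudocount of 1 FPKM, 19 were higher and 2 lower, and at an adjusted p under 0.01, 18 were higher and 1 lower. Under the other 7 alternatives 21 or 22 were higher and 5 to 7 lower. No named gene changed its direction under any alternative that was run. Of the named genes, FRO2, IRT1, AT4G29780, ACS11, AIR1, DIC2 and AT5G12110 gained a call with the SE from the authors' p, and 36 with the variance multiplied by 0.5. STZ passed without scaling, after centring and with an FPKM minimum of 10, and XTR6 and SPX1 with the last. The cause of these shifts was not tested. Depth is unknown, and the SE limits what a call can detect.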

Other observations

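With the summed variance multiplied by 0.5, 125 genes passed, of which 34 are on the gene lists. A few of the others are named here after their values were seen. On the higher side were further chaperone genes. HSP70T-2 had 8.44 FPKM in hdp3-2, 1.89 in asil1-2 and 1.94 in wild type. The DnaJ-domain genes AT3G14200 and AT1G72416 had log2 ratios of 1.24 and 1.08. Beside them were TIN1, annotated as tunicamycin induced, at 2.16, and ALMT1, the aluminium-activated malate transporter, with 4.91 FPKM in hdp3-2, 1.44 in asil1-2 and 2.44 in wild type. TIN1, at 0.937 FPKM in asil1-2, was included through hdp3-2 alone, so its ratio above 0 followed from the inclusion rule.

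On the lower side, 69 genes of many kinds passed, of which 4 are given. XTR6, a xyloglucan-modifying enzyme of the cell wall, had 23.7 FPKM in hdp3-2, 70.0 in asil1-2 and 26.53 in wild type. The aquaporin PIP2;4 had 20.1 FPKM in hdp3-2, 43.4 in asil1-2 and 20.4 in wild type. In both, hdp3-2 was close to wild type. ACS11, an enzyme of ethylene synthesis, had 2.27 FPKM in hdp3-2, 7.65 in asil1-2 and 4.83 in wild type, and AIR1, an auxin-induced root gene, had a log2 ratio of -1.43. None of the genes named here passed at the full variance with the SE from the authors' statistic, and ACS11 and AIR1 passed with the SE from the authors' p.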
